A study of Homo sapiens with 9 samples.

Results

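RNA-seq counts were examined for 10 genes of the Notch pathway in RIVA cells, an established ABC-DLBCL line, that is, diffuse large B-cell lymphoma of the activated B-cell-like type. The genes were chosen by name among the 60656 genes of the deposited table. They are the receptors NOTCH1 and NOTCH2, the ligands JAG1 and JAG2, the DNA-binding factor RBPJ, and the target genes DTX1, NRARP, HES1, HES4 and HEY1. RIVA cells had been infected with doxycycline-inducible lentiviral constructs that carried no insert (vector), the BCL10 truncation S136X or the BCL10 missense mutant R58Q, and 3 libraries were made for each group. Cells of all 3 groups, the vector controls included, were treated with doxycycline for 24 h. The treatment protocol and the paper give the dose as 200 ng/mL, whereas another label field lists 200 ng/µL. Per the paper, RIVA comes from a lymphoma with a BCL6 rearrangement and an activating NOTCH2 mutation, which all 3 groups share. The constructs were expressed beside the cells' own BCL10, and no library of induced wild-type BCL10 was analysed here.

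Notch receptors are single-pass membrane proteins that are cut by ADAM proteases and then by gamma-secretase after a ligand on a neighboring cell binds them. The released intracellular domain enters the nucleus and joins RBPJ, the DNA-binding factor of the pathway, and a Mastermind-like coactivator to switch on target genes. In mature B cells, NOTCH2 is best known for its part in forming marginal zone B cells. BCL10 works in a different pathway, in which it acts with MALT1 to carry the B-cell receptor signal to NF-kB.

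Total counts ranged from 28047713 to 33122267 per library. BCL10 had 885 to 1268 counts in the vector libraries, 9838 to 14293 in the S136X libraries and 10117 to 10596 in the R58Q libraries. This separates each mutant library from the vector libraries, but the reads per gene do not tell the S136X and R58Q constructs apart. The 3 markers of activated B-cell-like lymphoma (IRF4, PIM2 and BATF) were higher in both mutants, and 0 of 6 B-cell markers passed the call used below (edgeR's quasi-likelihood test, adjusted p under 0.05 and 1.5-fold or more) in either. By that test 1 of the 6 had an adjusted p under 0.05 in each mutant, CD79B in S136X (log2 fold change -0.39, adjusted p = 0.0361) and CD79A in R58Q (-0.35, adjusted p = 0.0466), and 3 and 2 had an unadjusted p under 0.05. B-cell markers summed to 2343 CPM or more in each library. T-cell markers summed to 2.77 to 6.65 CPM and 0 of 1 tested changed. Most of this was CD8A, with group means of 4.21 to 4.64 CPM, while CD3D, CD3E and CD2 had means of at most 0.199 CPM. Myeloid markers summed to 0.273 to 0.558 CPM and were too low to test. Epithelial markers summed to 36.4 to 59.4 CPM with 0 of 3 changed. Most of this was EPCAM, with group means of 43.1 to 44.0 CPM, beside at most 5.65 CPM for KRT8 and 0.716 CPM for KRT18. The endothelial and stromal markers, which mark cells that present Notch ligands, summed to 20.9 to 24.9 CPM for vector, 18.3 to 27.1 CPM for S136X and 23.1 to 29.7 CPM for R58Q. Of their 5 genes, COL1A1 rose in both mutants and PECAM1 fell in S136X, while the defining endothelial genes VWF and CDH5 had 0 counts in all 9 libraries, which allows up to 3 counts or 0.105 CPM. The part of such cells in the results was not tested. The names of the deposited columns carry a later date for all R58Q libraries than for all vector and S136X libraries. Effects of date and of the R58Q construct cannot be told apart in any comparison with R58Q.

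The DNA just upstream of the start was read for the 8 members with an entry among the RefSeq promoters on GRCh38.p14, over 250 bases before each of 12 annotated starts. The sequence GTGGGAA, the core of the site that RBPJ binds, was searched on both strands. It was found before HES1, before HES4 and before 1 of the 5 RBPJ starts, and 5.43% of 35116 promoters hold it. The NF-kB consensus was found before NOTCH2 and JAG2, and 9.96% of promoters hold it. A match describes the letters only. The HES1 and HES4 promoters are shown because their RBPJ site lies at nearly the same distance from the start, and the NOTCH2 promoter because NOTCH2 rose most among the members called. Each runs 5′ to 3′ on the strand of its gene and ends at the base before the start, with the matched motif in capitals: the RBPJ core at positions -85 to -79 for HES1 and -77 to -71 for HES4, and the NF-kB consensus at -99 to -90 for NOTCH2. The windows are chr3:194135898-194136147 (plus strand) for HES1, chr1:1000098-1000347 (minus strand) for HES4 and chr1:120069663-120069912 (minus strand) for NOTCH2.
HES1: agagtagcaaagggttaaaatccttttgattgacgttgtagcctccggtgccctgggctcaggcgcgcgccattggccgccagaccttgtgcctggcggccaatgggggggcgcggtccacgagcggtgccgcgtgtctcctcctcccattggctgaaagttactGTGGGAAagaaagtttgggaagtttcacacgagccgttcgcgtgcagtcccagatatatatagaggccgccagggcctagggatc
HES4: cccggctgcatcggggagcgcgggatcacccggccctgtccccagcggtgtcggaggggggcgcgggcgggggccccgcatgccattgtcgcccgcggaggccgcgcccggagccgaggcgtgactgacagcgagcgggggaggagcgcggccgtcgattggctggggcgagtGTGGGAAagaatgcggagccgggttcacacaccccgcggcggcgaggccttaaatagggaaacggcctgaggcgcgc
NOTCH2: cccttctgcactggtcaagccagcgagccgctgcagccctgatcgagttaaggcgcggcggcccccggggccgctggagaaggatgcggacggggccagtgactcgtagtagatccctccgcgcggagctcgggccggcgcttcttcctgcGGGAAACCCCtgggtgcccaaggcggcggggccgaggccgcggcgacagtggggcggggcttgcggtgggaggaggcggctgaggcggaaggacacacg

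NOTCH2 and NRARP passed the call as higher in both S136X and R58Q, and JAG1 and DTX1 passed it as lower in R58Q. In S136X JAG1 and DTX1 were at log2 fold changes of -0.60 and -0.44 without passing it, and neither passed it between the mutants. RBPJ was at a log2 fold change of -0.11 in both mutants, past no threshold. Levels are given as CPM, each gene's counts relative to the library total, scaled by the TMM method, and a gene was called changed where it differed by 1.5-fold or more with an adjusted p under 0.05. Of the 10 members, 9 had enough counts to be tested against vector. In S136X 2 of the 9 were called, both higher, where 3.87% of all 15530 genes tested were called (2.05% higher and 1.82% lower). In R58Q 4 of the 9 were called, 2 higher and 2 lower, where 7.63% of 15435 genes were called (4.09% higher and 3.54% lower). The median log2 fold change over the 9 was 0.35 in S136X and -0.11 in R58Q, beside -0.02 and -0.03 over all genes tested. The S136X and R58Q comparisons share the vector libraries.

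**Figure D1:**
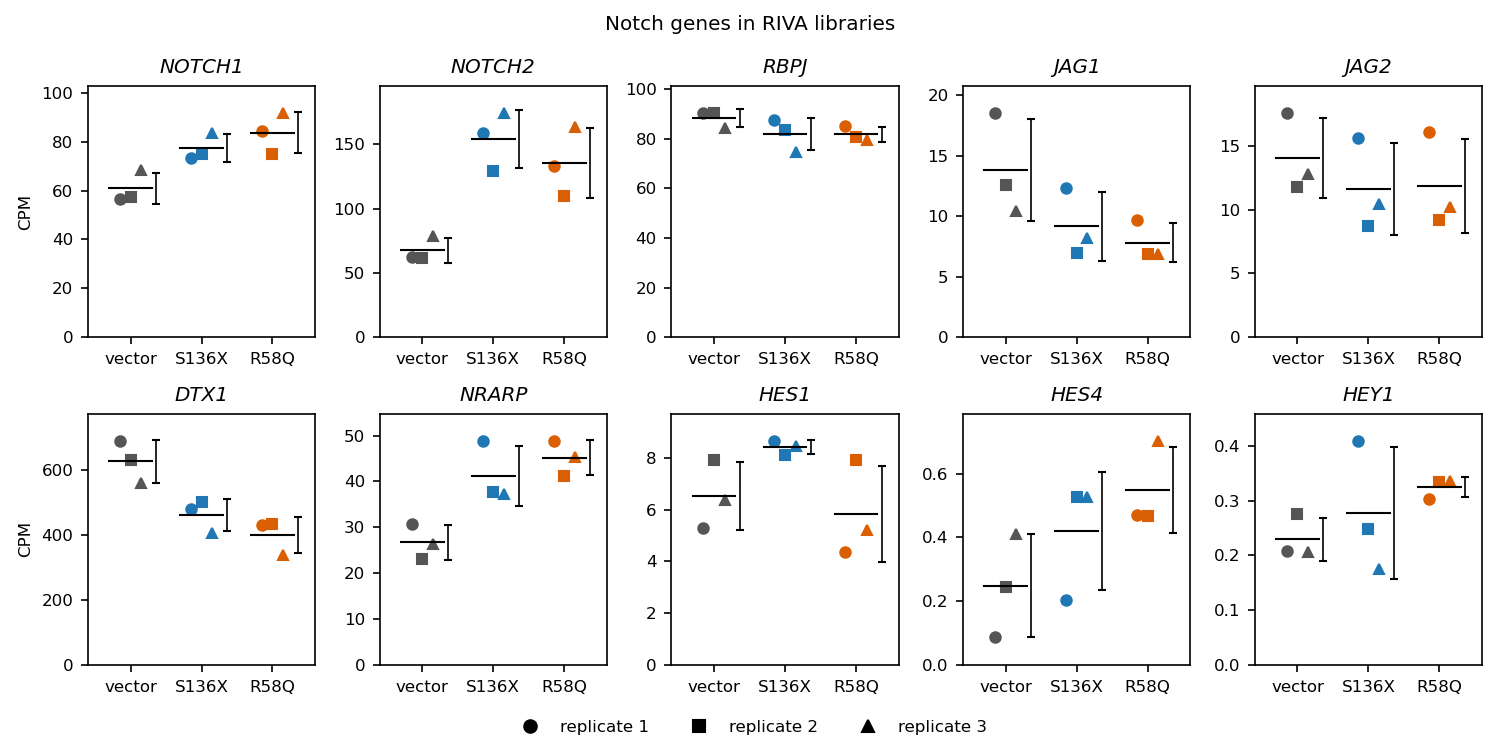
CPM (vertical axis, from 0) of the 10 Notch genes in the 9 RIVA libraries, by group on the horizontal axis. Each point is 1 library, its shape gives the replicate number, horizontal lines are means and the bars beside them are 1 SD (n = 3). All 6 mutant libraries lie above the 3 vector libraries for NOTCH1, NOTCH2 and NRARP, and below them for DTX1.

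NOTCH2 (ENSG00000134250.20, protein-coding, chr1:119911553-120100779, minus strand) is the receptor that B cells use to enter the marginal zone. It stood at 62.3, 61.6 and 78.9 CPM in vector replicates 1 to 3, at 158.5, 129.3 and 174.4 CPM in S136X and at 133.2, 109.8 and 163.7 CPM in R58Q. Every mutant library was above every vector library, and the ranges of the mutants overlapped each other. The mean rose from 67.6 ± 9.78 CPM (SD, n = 3) to 154.1 ± 22.8 CPM in S136X, a log2 fold change of 1.19 (SE 0.13, adjusted p = 0.00138). In R58Q it rose to 135.6 ± 27.0 CPM, a log2 fold change of 1.002 (SE 0.15, adjusted p = 0.00359). NOTCH2 stayed called in all 6 fits that left out 1 library, for each mutant.

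NOTCH2 has partial copies on chromosome 1, and 6.34% of the 31-base words of its longest transcript occur in other genes of GENCODE 29, mostly in NOTCH2NLA. Copies absent from that release could not be found by this search. NOTCH2NLC held 7, 5 and 10 counts in the vector libraries, 20, 11 and 26 in S136X and 13, 17 and 35 in R58Q, against 2016 to 5356 for NOTCH2 over all libraries. It moved in the same direction as NOTCH2, with a log2 fold change of 1.53 in S136X (SE 0.46, adjusted p = 0.0676, and 0.0128 with the replicate block) and 1.65 in R58Q (SE 0.45, adjusted p = 0.0332), where it passed the call in 1 of the 6 fits without 1 library. NOTCH2NLA held 0 to 4 counts and NOTCH2NLR at most 1. How reads shared between these genes were counted is not given in the sources used here.

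NOTCH1 (ENSG00000148400.12, protein-coding, chr9:136494433-136546048, minus strand) encodes the receptor required for T-cell fate, and was also higher in both mutants, by less than the 1.5-fold minimum. It stood at 56.8, 57.6 and 68.4 CPM in vector, 73.3, 75.2 and 83.8 CPM in S136X and 84.3, 75.1 and 91.8 CPM in R58Q. The groups did not overlap with vector. The log2 fold change was 0.35 in S136X (SE 0.09, adjusted p = 0.0423) and 0.46 in R58Q (SE 0.10, adjusted p = 0.0146). Over the alternative fits the adjusted p ran from 0.00111 to 0.173 in S136X and from 0.000119 to 0.0647 in R58Q.

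The balance of the receptors moved with these changes. Per kilobase of exon, the ratio of the NOTCH2 level to the NOTCH1 level was 0.678, 0.660 and 0.712 in vector, 1.33, 1.06 and 1.28 in S136X and 0.975, 0.903 and 1.10 in R58Q. All 6 mutant libraries lay above the vector libraries. With 3 libraries a group, an exact two-sided permutation test cannot go below 0.1, so the ratio is given as a description, and its absolute size depends on the exon length used.

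RBPJ (ENSG00000168214.20, protein-coding, chr4:26163455-26435131, plus strand) is the factor through which both receptors reach DNA. It stood at 90.5, 90.5 and 84.5 CPM in vector, 87.5, 83.6 and 74.8 CPM in S136X and 85.3, 81.0 and 79.4 CPM in R58Q. The groups overlapped. The log2 fold change was -0.11 in both mutants (SE 0.07, adjusted p = 0.369 in S136X, and SE 0.06, adjusted p = 0.204 in R58Q). Of its 31-base words, 4.14% occur in other genes of GENCODE 29, mostly a processed copy, and of the RBPJ pseudogenes RBPJP6 held 1 count in 1 library.

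JAG1 and JAG2 encode ligands of the Jagged family, which activate Notch on neighboring cells. JAG1 (ENSG00000101384.12, protein-coding, chr20:10637684-10673999, minus strand) stood at 18.5, 12.6 and 10.4 CPM in vector, 12.4, 6.94 and 8.17 CPM in S136X and 9.66, 6.88 and 6.88 CPM in R58Q. The R58Q libraries lay below all vector libraries, whereas 1 S136X library overlapped them. JAG1 fell in R58Q from 13.8 ± 4.21 to 7.81 ± 1.61 CPM (SD, n = 3), a log2 fold change of -0.83 (SE 0.23, adjusted p = 0.0354). This call was kept in 2 of the 6 fits without 1 library, and was lost without vector replicate 1 (-0.55, adjusted p = 0.0766), vector replicate 2 (-0.89, 0.0840), R58Q replicate 2 (-0.74, 0.0968) or R58Q replicate 3 (-0.74, 0.112). In S136X the log2 fold change of JAG1 was -0.60 (SE 0.26, adjusted p = 0.177). With the replicate number as a block, the S136X value was -0.60 (adjusted p = 0.00379) and passed the call.

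JAG2 (ENSG00000184916.9, protein-coding, chr14:105140982-105168824, minus strand) stood at 17.6, 11.8 and 12.8 CPM in vector, 15.6, 8.71 and 10.5 CPM in S136X and 16.1, 9.21 and 10.2 CPM in R58Q. The 3 groups overlapped. Its log2 fold change was -0.28 in S136X (SE 0.23, adjusted p = 0.476) and -0.25 in R58Q (SE 0.23, adjusted p = 0.470). With the replicate block the adjusted p was 0.0443 and 0.0453, at log2 fold changes of -0.29 and -0.27, under the fold minimum. Of the 31-base words of JAG2, 7.58% occur in other genes of GENCODE 29, all of them in AL512356.1. That gene overlaps JAG2 on the same strand and held 0 counts in every library.

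Replicate 1 had the highest level of both Jagged genes in every group. Its JAG1 level was 1.61, 1.64 and 1.41 times the mean of replicates 2 and 3 in vector, S136X and R58Q, and its JAG2 level 1.43, 1.63 and 1.65 times. The ligand genes of the Delta family were not alike in this. DLL3 showed ratios of 1.79, 2.92 and 2.31, whereas DLL1 (0.743, 0.784 and 0.988) and DLL4 (0.791, 1.20 and 0.941) were highest in replicate 1 in none of the groups. Replicate 1 was highest in all 3 groups for 15.9% of 15860 genes. This was not limited to ligand genes. It held for NRARP (ratios of 1.24, 1.30 and 1.13) and for the receptor NOTCH4 (1.175, 1.359 and 1.265). Without the replicate 1 libraries, a choice made after the data were seen, the log2 fold change of JAG1 was -0.59 in S136X (adjusted p = 0.0446) and -0.73 in R58Q (adjusted p = 0.0141), so JAG1 was then called in both.

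**Figure D2:**
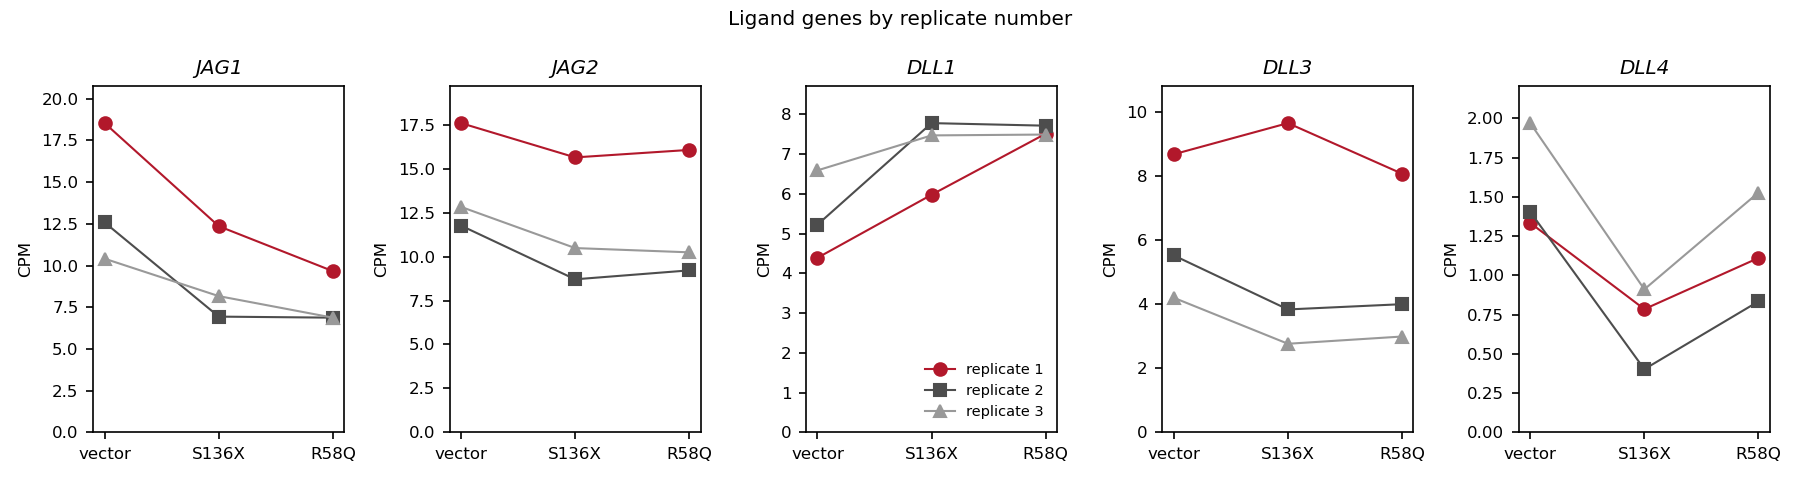
CPM (vertical axis, from 0) of the 5 tested ligand genes by group, with a line joining the libraries that share a replicate number. Replicate 1 is highest in each group for JAG1, JAG2 and DLL3 and in no group for DLL1 and DLL4, and within each replicate number JAG1 is lower in both mutants than in vector.

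DTX1 (ENSG00000135144.7, protein-coding, chr12:113056709-113098028, plus strand) encodes Deltex, an E3 ubiquitin ligase that is a Notch target and regulator, and it was the member with the highest level per kilobase. It stood at 689.3, 629.9 and 557.8 CPM in vector, 478.2, 500.5 and 404.6 CPM in S136X and 429.6, 433.0 and 336.6 CPM in R58Q. All mutant libraries lay below all vector libraries. DTX1 fell in R58Q by 0.65 on the log2 scale (SE 0.12, adjusted p = 0.00711). Without vector replicate 1 (-0.56) or R58Q replicate 3 (-0.54) the R58Q value was under the fold minimum, with adjusted p = 0.0190 and 0.0191. In S136X the log2 fold change was -0.44 (SE 0.10, adjusted p = 0.0294), under the fold minimum.

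NRARP (ENSG00000198435.4, protein-coding, chr9:137299631-137302271, minus strand) encodes a small ankyrin-repeat protein that is induced by Notch and restrains it. Its direction was opposite to that of DTX1, although both are Notch targets. It stood at 30.7, 23.1 and 26.5 CPM in vector, 48.8, 37.6 and 37.3 CPM in S136X and 48.9, 41.3 and 45.3 CPM in R58Q, with no overlap with vector. NRARP rose by 0.62 on the log2 scale in S136X (SE 0.13, adjusted p = 0.0224) and by 0.75 in R58Q (SE 0.11, adjusted p = 0.00325). The R58Q call was kept in all 6 fits without 1 library. The S136X call was lost without vector replicate 2 (0.53, adjusted p = 0.0917), vector replicate 3 (0.63, 0.0560) or S136X replicate 1 (0.49, 0.0308), and with scaling to total counts only (0.57, 0.0281).

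HES1, HES4 and HEY1 encode basic helix-loop-helix repressors, the classical nuclear targets of Notch, and none of them passed the call. HES1 (ENSG00000114315.4, protein-coding, chr3:194136148-194138732, plus strand) stood at 5.31, 7.91 and 6.38 CPM in vector, 8.67, 8.12 and 8.48 CPM in S136X and 4.38, 7.91 and 5.23 CPM in R58Q. The S136X libraries lay above all others, while vector and R58Q overlapped. The log2 fold change against vector was 0.37 in S136X (SE 0.16, adjusted p = 0.177) and -0.16 in R58Q (SE 0.24, adjusted p = 0.659).

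HES4 (ENSG00000188290.11, protein-coding, chr1:998962-1000172, minus strand) had 3, 8 and 14 counts in the vector libraries, 6, 17 and 15 in S136X and 14, 14 and 23 in R58Q, at most 0.703 CPM. The log2 fold change was 0.75 in S136X (SE 0.56, adjusted p = 0.432) and 1.13 in R58Q (SE 0.48, adjusted p = 0.125). With the replicate block the R58Q value was 1.15 (adjusted p = 0.0454) and passed the call. HEY1 (ENSG00000164683.18, protein-coding, chr8:79762371-79767857, minus strand) had 7, 9 and 7 counts in vector, 12, 8 and 5 in S136X and 9, 10 and 11 in R58Q, too few to be tested against vector. Between the mutants HEY1 was tested, at a log2 fold change of 0.22 for R58Q over S136X (SE 0.38, adjusted p = 0.919). At this depth a small or moderate difference in HEY1 could not be detected.

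**Figure D3:**
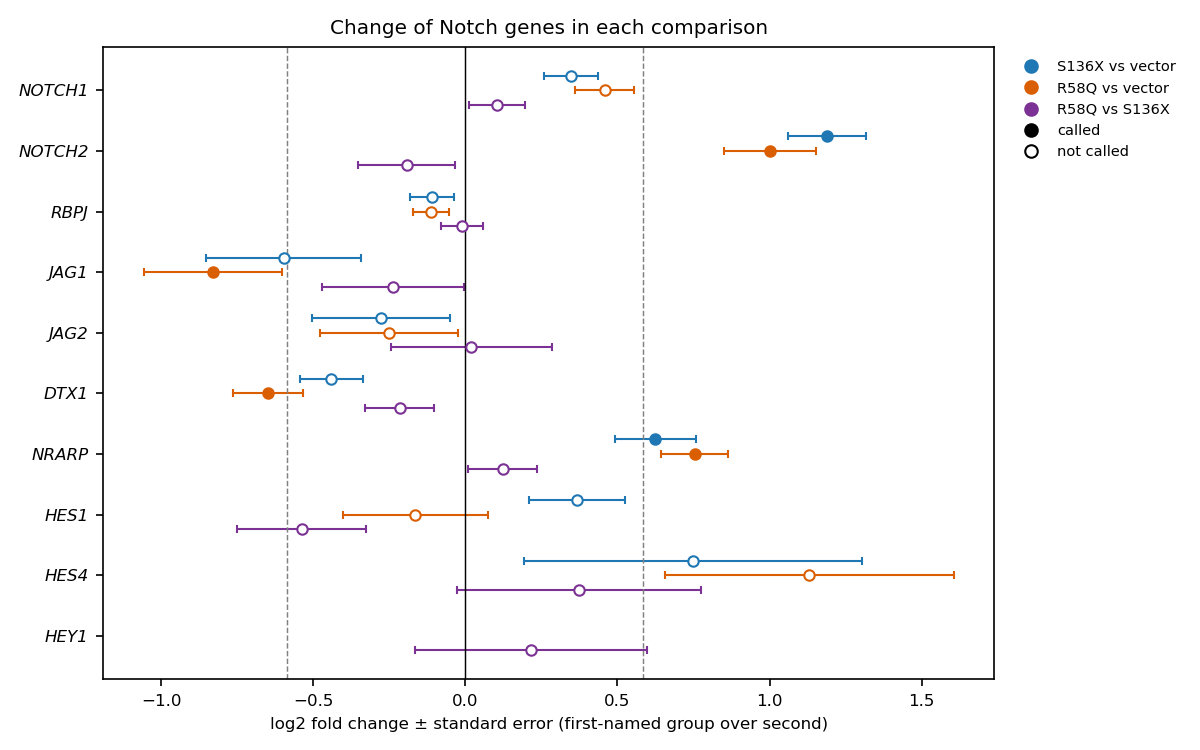
Log2 fold change (horizontal axis) of the Notch genes in the 3 comparisons, with bars of 1 standard error. Filled points passed the call, open points did not, and dashed lines mark 1.5-fold. NOTCH2 lies at 1.19 in S136X and 1.002 in R58Q, JAG1 and DTX1 lie left of 0, and RBPJ lies close to 0.

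In all, 5 of the 9 members tested did not overlap between S136X and vector (NOTCH1, NOTCH2, DTX1, NRARP and HES1), where 31.3% of all genes tested did not overlap. Between R58Q and vector 6 of 9 did not overlap (NOTCH1, NOTCH2, DTX1, NRARP, JAG1 and HES4), where the share over all genes was 40.3%. In these bulk samples, fewer cells with a transcript and less RNA per cell cannot be told apart.

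Comparing the mutants directly, 0 of the 10 members were called by edgeR, DESeq2 or limma-voom, where edgeR called 0.434% of 15195 genes (0.27% higher and 0.165% lower in R58Q). HES1 alone had an unadjusted p under 0.05, with a log2 fold change of -0.54 for R58Q over S136X (SE 0.21, adjusted p = 0.401), and its groups did not overlap, as was so for 17% of all genes. NOTCH2 was at -0.19 (SE 0.16, adjusted p = 0.771), NRARP at 0.12 (SE 0.11, adjusted p = 0.808) and DTX1 at -0.22 (SE 0.11, adjusted p = 0.562). With the replicate block the adjusted p was 0.00384 for NOTCH2, 0.00101 for DTX1 and 0.0081 for HES1, at log2 fold changes of -0.20, -0.22 and -0.55, all under the fold minimum. NOTCH2 was lower in R58Q than in S136X in each of the 3 replicate pairs, as were DTX1, HES1 and JAG1, and NRARP was higher in each. With the block JAG1 and NRARP had an adjusted p of 0.126 and 0.149. The share of all genes with the same direction in every pair was not computed.

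Levels of different genes were compared per kilobase of exon, as CPM per kb. DTX1 led in every group, with a vector mean of 142.6 (SD 15.01, n = 3), an S136X mean of 105.1 (SD 11.4) and an R58Q mean of 91.1 (SD 12.5). NRARP was next at 15.1 ± 2.14, 23.3 ± 3.71 and 25.5 ± 2.15. In vector RBPJ followed at 9.56 ± 0.375, then NOTCH1 at 5.87 ± 0.625 and NOTCH2 at 4.02 ± 0.582. In S136X NOTCH2 came to the level of RBPJ, at 9.17 ± 1.36 beside 8.86 ± 0.703. In R58Q NOTCH2 was at 8.07 ± 1.61 beside 8.85 ± 0.329 for RBPJ. In neither mutant did NOTCH2 and RBPJ differ beyond their spread. NOTCH1 was at 7.46 ± 0.539 in S136X and 8.07 ± 0.806 in R58Q. In R58Q NOTCH1 was thus level with NOTCH2, and it did not differ from RBPJ beyond their spread. This depended on the length used. By the longest transcript the order in R58Q was RBPJ, NOTCH2 and NOTCH1, with NOTCH1 below RBPJ beyond their spread. In vector by that length, NRARP at 15.1 ± 2.14 and RBPJ at 14.8 ± 0.579 did not differ beyond their spread. Nor did NOTCH1 at 6.54 ± 0.697 and NOTCH2 at 5.94 ± 0.859. The deposited locations of NRARP, NOTCH1, NOTCH2 and HEY1 reach beyond those of GENCODE 29, so the lengths used for them may be too short.

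The ligands and the repressors were the lowest members per kilobase. In vector the order ran from HES1 (3.17 ± 0.634 CPM per kb) over JAG2 (2.20 ± 0.485) and JAG1 (1.49 ± 0.452) to HES4 (0.222 ± 0.144) and HEY1 (0.0710 ± 0.0122). Within this run HES1 and JAG2, JAG2 and JAG1, and HES4 and HEY1 did not differ beyond the sum of their SDs. The order of these 5 genes was the same in S136X and R58Q, and when the length of the longest transcript was used.

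A list of 76 other Notch pathway genes was examined by role, of which 65 were tested against vector. In S136X 5 passed the call (7.69%), 4 higher and 1 lower, where 3.87% of all genes passed. In R58Q 6 passed (9.23%), all higher, where 7.63% of all genes passed. The list median was 0.01 and -0.02 on the log2 scale, beside -0.02 and -0.03 over all genes. With the replicate block 8 passed in S136X and 8 in R58Q, where 6.53% and 10.7% of all genes passed. The share of all genes at an unadjusted p under 0.05 was not computed, so counts at that threshold have no background.

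Of the receptors NOTCH3 and NOTCH4 and the 3 tested of 5 ligands, 0 passed the call in either mutant, with 1 of the 5 at an unadjusted p under 0.05 in S136X and 2 in R58Q. DLL4, a Delta-family ligand, was at 1.34, 1.41 and 1.97 CPM in vector and 0.785, 0.403 and 0.911 CPM in S136X. Its log2 fold change was -1.17 (SE 0.33, adjusted p = 0.0549), and with the replicate block it passed (adjusted p = 0.0108). Among 9 genes of receptor cleavage (the ADAM proteases, furin and the subunits of gamma-secretase) 0 passed in either mutant, with 2 at an unadjusted p under 0.05 in S136X and 5 in R58Q. Among 5 genes of receptor glycosylation 0 passed, with 1 and 4 at an unadjusted p under 0.05. LFNG, the Fringe enzyme that tunes which ligands Notch answers to, was at 0.58 in R58Q (SE 0.13, adjusted p = 0.0183), just under the fold minimum.

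Among 12 tested genes of ubiquitin ligases and trafficking, DTX4 passed in S136X, and DTX4 and DTX3L in R58Q. DTX4, a Deltex-family E3 ligase, was at 24.6, 28.7 and 29.4 CPM in vector, 71.0, 62.4 and 69.9 CPM in S136X and 65.4, 56.3 and 65.1 CPM in R58Q. It rose by 1.30 on the log2 scale in S136X (SE 0.09, adjusted p = 0.000152) and by 1.17 in R58Q (SE 0.09, adjusted p = 0.000157), opposite to its relative DTX1. DTX3L, the partner of PARP9 and better known as an interferon-induced gene than as a Notch regulator, was at 26.5, 34.7 and 39.0 CPM in vector, 31.3, 81.9 and 47.0 CPM in S136X and 59.2, 110.8 and 74.3 CPM in R58Q. It rose by 1.28 in R58Q (SE 0.23, adjusted p = 0.00683), while in S136X it was at 0.68 (adjusted p = 0.190, and 0.0236 with the replicate block). NEURL1, a Neuralized-family ligase at most 1.32 CPM, passed with the block, at an adjusted p of 0.0162 in S136X and 0.0203 in R58Q.

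Among 9 tested coactivators, MAML2 passed in S136X, and MAML2 and CCNC in R58Q. MAML2, a Mastermind-like protein that binds the complex of Notch and RBPJ, was at 11.7, 10.3 and 11.7 CPM in vector, 28.4, 20.01 and 23.7 CPM in S136X and 42.4, 24.6 and 46.3 CPM in R58Q. It rose by 1.10 on the log2 scale in S136X (SE 0.13, adjusted p = 0.00235) and by 1.75 in R58Q (SE 0.22, adjusted p = 0.00157). Its relative MAML1 was at -0.03 and -0.10 (adjusted p = 0.795 and 0.184). CCNC, cyclin C of the Mediator kinase module, which marks the Notch domain for decay, rose by 0.67 in R58Q (SE 0.07, adjusted p = 0.000829) and was at 0.43 in S136X (adjusted p = 0.0105), under the fold minimum.

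Of 13 tested corepressors 0 passed in either mutant, with 3 at an unadjusted p under 0.05 in S136X and 2 in R58Q. Of the other HES and HEY genes, 3 of 6 were tested and 0 passed, with 2 at an unadjusted p under 0.05 in each mutant. HES6 was at -0.41 in S136X (adjusted p = 0.0243) and -0.33 in R58Q (adjusted p = 0.0880). HES5, a classical Notch target, had 0 counts in all 9 libraries, which allows up to 3 counts or 0.105 CPM.

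Of 9 tested genes known to respond to Notch in B cells, 3 passed in S136X, 2 higher and 1 lower, and 2 passed in R58Q, both higher. Of all genes tested, 3.87% and 7.63% passed. In each mutant 7 of the 9 had an unadjusted p under 0.05, and 4 in S136X and 6 in R58Q had an adjusted p under 0.05. The shares of all genes at these looser thresholds were not computed, so the percentages above are no background for these counts. The median log2 fold change of the 9 was 0.03 in S136X and -0.14 in R58Q. SEMA7A, a membrane-anchored semaphorin, was at 33.4, 37.0 and 39.9 CPM in vector, 52.2, 73.6 and 86.7 CPM in S136X and 155.1, 130.7 and 222.1 CPM in R58Q. It rose by 0.95 on the log2 scale in S136X (SE 0.16, adjusted p = 0.00991) and by 2.20 in R58Q (SE 0.18, adjusted p = 0.000223). IL6R, the alpha chain of the interleukin-6 receptor, rose by 1.11 in S136X (SE 0.19, adjusted p = 0.00921) and by 1.33 in R58Q (SE 0.23, adjusted p = 0.00644). FCER2, the low-affinity IgE receptor of B cells, was at 18.7, 16.0 and 17.6 CPM in vector, 10.4, 12.5 and 8.52 CPM in S136X and 13.5, 12.5 and 9.02 CPM in R58Q. It fell by 0.74 in S136X (SE 0.14, adjusted p = 0.0154), and in R58Q it was at -0.58 (SE 0.15, adjusted p = 0.0283), just under the fold minimum, and it passed with the block (adjusted p = 0.00461). MYC, which Notch drives in several lymphoid cancers, was at 0.11 in S136X (adjusted p = 0.376) and -0.03 in R58Q (adjusted p = 0.771).

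**Figure D4:**
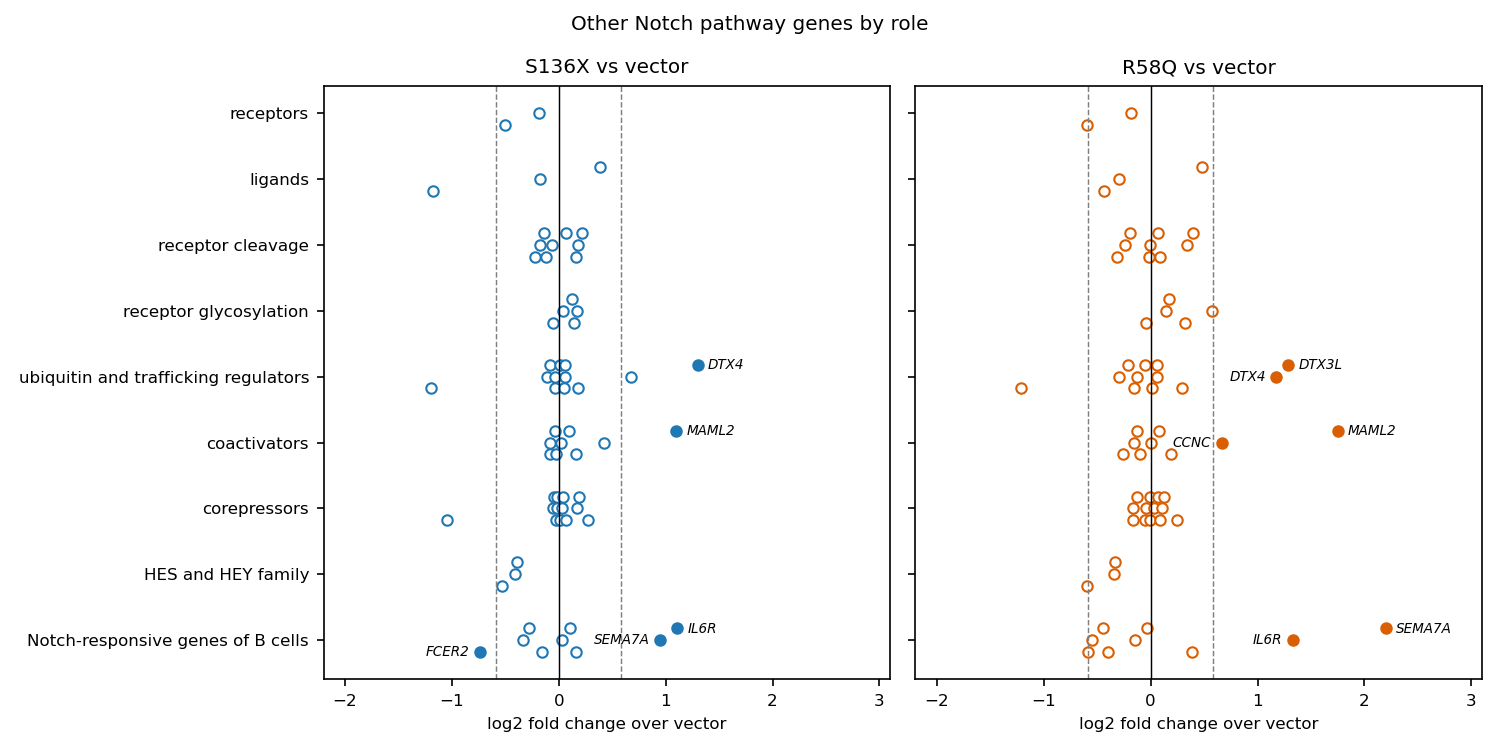
Log2 fold change (horizontal axis) over vector of the other Notch pathway genes that were tested, in rows by role, for S136X (left) and R58Q (right). Filled, named points passed the call and dashed lines mark 1.5-fold. Of the 65 genes in each panel, 5 passed in S136X and 6 in R58Q, and SEMA7A at 2.20 in R58Q lies farthest to the right.

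Between the mutants 0 of 64 tested pathway genes were called by edgeR, with 14 at an unadjusted p under 0.05 and 1 called by DESeq2. With the replicate block 3 passed, where 2.94% of all genes passed: SEMA7A at 1.24 (adjusted p = 5.11e-09), DTX3L at 0.64 (9.92e-07) and MAML2 at 0.62 (3.32e-05), all higher in R58Q.

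For each member that was called, the genes with the most similar log2 CPM over the 9 libraries were listed as a description. The libraries share 3 groups and 3 replicate numbers, which raises such correlations. For NOTCH2 they were EPB41L4B (r = 0.993), KIF26B (0.986) and SNAPC4 (0.984), and for NRARP MFSD14A (0.997), SLC35F2 (0.991) and MTREX (0.988). For DTX1 SH3BGRL3 (0.994) and TSPAN14 (0.988) led. For JAG1 they were NEIL3 (0.979), USP44 (0.978) and MINDY1 (0.977).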

How the data were processed

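RNA was sequenced on an Illumina NovaSeq instrument from Nugen Universal Plus mRNA libraries, and reads of 2 runs were combined. The authors deposited a table of raw read counts per gene, and beside it counts divided by 1 factor per library, which were not used. The submitters' processing notes name cutadapt, STAR, Picard and hg38. The counting program, its strand setting and the annotation are not given in the sources used here. Reads of overlapping genes, on either strand, thus cannot be told apart from those of a member. Genes overlapping a member held at most 6 counts in a library. Of the identifiers, 96.3% are in GENCODE 29, whose exons gave the lengths.

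edgeR 4.0.16 in R 4.3.3 was used for the counts. Each pair of groups was fitted on its 6 libraries with filterByExpr (minimum count 10, minimum total 15), TMM scaling and edgeR's quasi-likelihood test, and p-values were adjusted by Benjamini and Hochberg over all genes tested. A call needed a change of 1.5-fold or more with an adjusted p under 0.05. Standard errors were derived from the F statistic and the log2 fold change. DESeq2 1.42.0 and limma-voom (limma 3.58.1) were alternatives. The procedures were tested on counts simulated for the S136X comparison, with 200 genes changed 2-fold. There edgeR called 135 of the 200 (67.5%) and 12 unchanged genes, so a gene that was not called may still have changed.

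The paper's general statement of t tests was not applied across genes. The members and gene lists were chosen with earlier results of these data known. All members are named, as are the pathway genes called in any comparison, the 3 genes most like each called member, and copies of NOTCH2 and RBPJ that have counts. A gene that the rule selects is not reported here. CD79A, CD79B, LFNG, HES5, HES6, MYC, MAML1, DLL1, DLL3, DLL4, NEURL1 and ISG15 were named after their values were seen. A count of 0 allows up to 3 counts (counting error only).

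The labels number replicates 1 to 3 in each group. Deviations from the group means correlated at 0.143 to 0.626 between libraries of the same number (9 of 9 above 0.1). Between libraries of different numbers the correlations ran from -0.459 to 0.169, with a median of -0.251, so the ranges overlapped. Deviations cancel within a group, so positive values at the same number make the others negative on average. The negative median is thus no separate evidence of pairing. Vector replicate 2 correlated at 0.143 with S136X replicate 2 and 0.163 with R58Q replicate 2, under the highest value between different numbers. The dates in the column names differ between R58Q and the other groups, so a shared number is not known to mean a shared batch. The numbers were taken to pair the libraries, and values with the replicate block, given where they change a call, rest on this choice. Replicate libraries differed beyond sampling noise, with chi-square values of 7.91 to 25.6 per degree of freedom. The paper calls them biologic replicates, and neither it nor the labels say how the cultures were kept apart, so p-values measure the spread between these libraries.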

Additional observations from a re-analysis of the deposited data

Results flagged for a closer look

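R58Q was tested against S136X with the replicate number as a block. Of the members and the pathway genes called against vector, 7 had an adjusted p under 0.05 there, of which 3 (DTX3L, MAML2 and SEMA7A) also differed by 1.5-fold or more. With no minimum fold, 3 of 10 members and 21 of 64 other pathway genes were under that adjusted p, as were 14.6% of all 15195 genes tested. Among the members, the log2 fold change of R58Q over S136X was -0.20 for NOTCH2 (adjusted p = 0.00384), -0.22 for DTX1 (0.00101) and -0.55 for HES1 (0.0081). Among the other pathway genes it was 0.64 for DTX3L (9.92e-07), 0.62 for MAML2 (3.32e-05), 0.23 for CCNC (0.00506) and 1.24 for SEMA7A (5.11e-09). Without the block 0 of the 7 reached an adjusted p of 0.05 by edgeR. The date in the column names differs between the same groups and cannot be told apart from the construct.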

How the results depend on the processing

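Of the members called in S136X, the main count of 2 became 1 with total counts only, 4 with no minimum fold and 1 at an adjusted p under 0.01, and ran from 1 to 2 over the fits without 1 library. The R58Q count of 4 ran from 2 to 4 without 1 library. Leaving out replicate 1 of both groups gave 3 and 4. For the other pathway genes, the S136X count of 5 became 9 with no filter, 8 with the replicate block and 9 with no minimum fold, and ran from 3 (without vector replicate 2) to 6. The R58Q count of 6 became 15 with no minimum fold and ran from 6 to 9. The count of 0 between the mutants became 1 by DESeq2, 1 with no filter, 1 with all 9 libraries in one fit and 3 with the replicate block. The block changed no call of a member other than JAG1 in S136X and HES4 in R58Q. Directions turned only for values that were not called: JAG2 between the mutants (-0.00098 with upper-quartile scaling), and, over the fits that left out 1 library or replicate 1 of both groups, HES1 in R58Q (-0.44 to 0.018), RBPJ (-0.066 to 0.038), JAG1 (-0.41 to 0.037), JAG2 (-0.26 to 0.29) and HEY1 (-0.010 to 0.63) between the mutants. RBPJ was at 0.01 between the mutants without replicate 1. Of the 3 genes most like JAG1 by Pearson's r, 0 were among the 50 most alike by Spearman's rho. The cause of these shifts was not tested. Depth limits HES4 and HEY1, at 3 to 23 counts per library.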

Other observations

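HES4 lies beside ISG15, an interferon-induced gene on the opposite strand, with 966 bases between their outermost annotated starts. ISG15 has 4 annotated transcripts over chr1:1001138-1014540, and which of their starts was in use was not examined. ISG15 was looked at after the values of HES4 were seen. It stood at 13.7, 18.4 and 21.8 CPM in vector, 19.8, 73.4 and 41.5 CPM in S136X and 30.3, 104.0 and 59.8 CPM in R58Q, lowest in replicate 1 of each group, while HES4 had its lowest value in replicate 1 in vector and S136X. ISG15 rose in R58Q (log2 fold change 1.85, SE 0.39, adjusted p = 0.0141) and was at 1.32 in S136X (adjusted p = 0.0681, and 0.00297 with the replicate block). DTX3L, which is also induced by interferon, was lowest in replicate 1 of each group and highest in replicate 2 of both mutants.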
